A study of Mus musculus with 20 samples.

Results

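A set of 10 genes of the p53 response and of growth arrest was followed in the livers of mice on a high-fat diet (HFD) and of mice on chow: Cdkn1a, Btg2, Ccng1, Mdm2, Bax, Trp53inp1, Phlda3, Sesn2, Gadd45a and Gadd45b. The genes were taken by symbol, as a fixed list, from the 55401 gene IDs of the count table. All 10 were among the 14542 genes that passed the filter on low counts and were tested. Total RNA came from livers of C57BL/6 mice with the genotype label WT, 10 libraries from HFD animals (HFD 1 to HFD 10) and 10 libraries from chow animals (chow 1 to chow 10). The HFD supplied 60% fat, 20% carbohydrate and 20% protein and was given for 12 weeks, and neither diet group carried a transgene or a second treatment in its labels. The study's design text mentions 3 groups on the HFD, but all 10 HFD samples carry 1 label, and they were treated as 1 group. Age is not among the labels used, and the labels do not say whether the samples are separate mice. In what follows a liver means 1 sample, n counts samples, and the p-values cover only the spread among them.

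The p53 protein, encoded in the mouse by Trp53, is a transcription factor that is stabilised by DNA damage and other stress and switches on genes for cell cycle arrest, apoptosis, DNA repair and metabolic control. Its activity is closed off by its own target Mdm2, which marks p53 for degradation. Several of these genes also answer to other stress pathways: Cdkn1a, Btg2, Sesn2 and the Gadd45 genes can be induced through ATF4, NF-kB, FOXO factors or hormones without p53. In liver, Cdkn1a and the Gadd45 genes are best known for restraining or accompanying hepatocyte division after injury and resection.

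HFD livers had higher levels of 5 of the 10 genes and lower levels of none, at an adjusted p under 0.05 in edgeR's quasi-likelihood test over all genes. Of all tested genes, 13% were called higher and 7.05% lower. The 5 were the cell cycle inhibitor Cdkn1a, the stress gene Gadd45b, the antiproliferative gene Btg2, cyclin G1 (Ccng1) and Mdm2. The median log2 change of the 10 genes, HFD minus chow, was 0.89, against 0.02 over all genes tested. It was 0.42 without HFD 1, HFD 2 and HFD 6, which stood apart as described below, against -0.005 over all genes. Over all 20 libraries, Cdkn1a and Gadd45b changed most, by 3.19 and 2.77 on the log2 scale. The pro-apoptotic gene Bax changed by 0.37 and did not pass the test. Trp53 transcript itself averaged 16.2 ± 3.20 CPM in HFD livers and 15.4 ± 1.46 CPM in chow livers (SD, n = 10 each). Its log2 change of 0.08 was not called (SE 0.120, adjusted p = 0.688, edgeR's quasi-likelihood test). On log2 FPKM with 1 and 0.1 added it was -0.18 and -0.38, where the median of all genes was -0.14 and -0.39. CPM is a count scaled to 1e+06 counts per library, with edgeR's TMM library sizes.

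RefSeq promoter windows, which run from 250 bases before to 50 bases after an annotated start, were matched for 9 of the 10 genes. The windows of the 3 genes with the smallest adjusted p-values are given in the GRCm38.p6 build, each read 5′ to 3′ on the strand of its gene. In the Cdkn1a window (chr17:29090729-29091028, plus strand) the capitals run from 1 CATG core to another 6 bases further on, in the Gadd45b window (chr10:80929841-80930140, plus strand) they mark CACGTG and TATAAA, and in the Btg2 window (chr1:134079106-134079405, minus strand) they mark TGACGTCA.
Cdkn1a: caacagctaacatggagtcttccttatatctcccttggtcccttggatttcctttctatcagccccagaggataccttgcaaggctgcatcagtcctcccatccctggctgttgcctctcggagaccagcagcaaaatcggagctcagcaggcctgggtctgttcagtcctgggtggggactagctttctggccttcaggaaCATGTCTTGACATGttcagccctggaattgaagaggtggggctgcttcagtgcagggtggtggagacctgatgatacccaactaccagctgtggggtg
Gadd45b: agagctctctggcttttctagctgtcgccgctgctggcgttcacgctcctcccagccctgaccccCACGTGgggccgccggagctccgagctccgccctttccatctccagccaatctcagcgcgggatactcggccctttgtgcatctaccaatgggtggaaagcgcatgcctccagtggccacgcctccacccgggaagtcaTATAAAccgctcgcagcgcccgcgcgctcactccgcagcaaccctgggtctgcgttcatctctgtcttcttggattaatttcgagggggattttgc
Btg2: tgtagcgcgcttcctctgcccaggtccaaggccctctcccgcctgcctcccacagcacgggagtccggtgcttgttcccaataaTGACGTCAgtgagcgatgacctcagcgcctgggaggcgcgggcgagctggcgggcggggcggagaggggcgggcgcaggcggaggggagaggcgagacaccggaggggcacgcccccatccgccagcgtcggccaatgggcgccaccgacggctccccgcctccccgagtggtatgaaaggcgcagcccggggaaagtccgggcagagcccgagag

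All motifs were searched on both strands in 32841 promoter windows of 300 bases. The p53 half-site, by its consensus, was present in 8.36% of all windows, or in windows of 9.56% of all genes with a window. It was in windows of 5 of the 9 genes: Cdkn1a, Mdm2, Ccng1, Bax and Gadd45a. A pair of half-sites with a spacer of up to 13 bases was rarer, in 0.0731% of windows, and among these genes it lay only in the Cdkn1a window shown, from base -73 to base -42 relative to the start. The pair of CATG cores in capitals, which overlaps this pair of half-sites and was added after the window had been read, begins at base -48 and was present in 0.713% of windows. Directly after the half-site GAACATGTCT stands TGACATGTTC, which misses the consensus only at its first base and so was not counted as a half-site. Sites outside the promoter windows were not searched for any gene. Cdkn1a has a further window at a downstream start, without any half-site. The TATAAA of Gadd45b, 46 bases before its start, is a core promoter motif found in 13.6% of windows, and CACGTG, the E-box read by MYC and its relatives, was present in 7.15% of windows, including those of Gadd45b and Bax. The TGACGTCA of Btg2, the full cyclic AMP response element, was found in 1.79% of windows. GGGCGG was present in 35.7% of windows (38.2% of genes) and in those of 8 of the 9 genes, and CATG in 61.1% of windows (64.8% of genes) and 6 of the 9 genes. TGATGCAA, a form of the element read by ATF4 with its partners, was in 0.895% of windows (1.03% of genes). The NF-kB site by its consensus was in 4.51% (5.14% of genes), and these 9 genes held neither of them.

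The libraries held 20111896 to 90033879 counts in HFD and 34727227 to 49065587 in chow. Mitochondrial transcripts took 75.6% of the counts in HFD 1 and 94.4% in HFD 2, with Wilson intervals at 95% confidence of 75.56% to 75.60% and 94.43% to 94.44% (counting error only), while the other libraries had 1.34% to 3.10%. Annotated nuclear rRNA made up 13.3% of HFD 1 (interval 13.28% to 13.31%) and 20.4% of chow 9 (20.37% to 20.40%), and 0.807% or less of the others. HFD 1 and HFD 2 therefore held only 347 and 1153 counts of the 10 genes together, against 2475 to 59018 in the other libraries, and 1 count equals 0.289 CPM in HFD 1. Hepatocyte markers (Alb, Apob, Ttr, Cps1, Hnf4a, Cyp2e1 and Tat) were abundant in every library, with sums of 16407 to 84283 CPM in HFD and 73466 to 109839 CPM in chow, the lowest being HFD 2 and HFD 1. HFD 6 also stood apart: it was the highest of the 20 libraries for 6 of the 10 genes, while HFD 2 was the highest for 3 genes and HFD 1 for 1. The log2 changes of the 10 genes that rest on these libraries are given with and without them. The relations with Cdkn1a and the likeness to it below were not run without HFD 1 and HFD 2. The setting without HFD 1, HFD 2 and HFD 6 was added after the data were seen.

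Cdkn1a encodes p21, which binds and inhibits cyclin-dependent kinases and is the classical effector of p53-dependent arrest. The gene (ENSMUSG00000023067) lies on chromosome 17 at 29090976 to 29100727 of GRCm38, on the plus strand. HFD livers had 3.75 CPM at the lowest, 7.54 CPM at the median and 53.01 CPM at the highest, against 0.862, 1.61 and 2.11 CPM in chow livers. The lowest chow value was that of chow 9, and without chow 9 the gene was called as well. Every HFD library lay above every chow library, which held for no other of the 10 genes and for 2.39% of all tested genes. Without HFD 1 and HFD 2 it held for Gadd45b as well (4.69% of all tested genes), and with counts scaled by library totals alone it held for 0 of the 10 genes (0.344%). The log2 change was 3.19 (SE 0.451, adjusted p = 2.22e-05, edgeR's quasi-likelihood test), and the ratio of the medians was 4.69. Within the HFD group the gene varied widely: HFD 6 had 53.01 CPM, HFD 10 had 32.3 CPM and HFD 8 had 14.1 CPM, while the other HFD libraries had 9.08 CPM or less. The coefficient of variation was 113% in HFD and 26.4% in chow. Without HFD 1, HFD 2 and HFD 6 the log2 change was 2.90 (adjusted p = 1.70e-06, edgeR's quasi-likelihood test), with means of 11.6 ± 9.64 CPM in the remaining HFD livers (SD, n = 7) and 1.57 ± 0.415 CPM in chow livers (SD, n = 10).

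Btg2 encodes an antiproliferative protein that joins the CCR4-NOT deadenylase to messenger RNAs; the gene (ENSMUSG00000020423) is on chromosome 1 at 134075170 to 134079120, minus strand. Its level was 7.46 CPM at the lowest, 13.9 CPM at the median and 55.1 CPM at the highest in HFD livers, and 4.18, 6.00 and 11.5 CPM in chow livers. The diets overlapped, and 7 of 10 HFD libraries were above the highest chow library. The difference was 1.63 on the log2 scale (SE 0.328, adjusted p = 0.00115, edgeR's quasi-likelihood test). As for Cdkn1a, HFD 6 (55.1 CPM) and HFD 10 (42.1 CPM) were highest, and a fit lacking HFD 6 gave a log2 change of 1.32 (adjusted p = 0.00164). The call was lost on the deposited FPKM values with 1 added (log2 change 0.84, adjusted p = 0.221, limma-trend).

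Ccng1 encodes cyclin G1, a p53 target that brings protein phosphatase 2A to Mdm2 (ENSMUSG00000020326, chromosome 11 at 40748552 to 40755311, minus strand). HFD livers ranged from 17.3 CPM over a median of 20.6 CPM to 91.5 CPM, and chow livers from 13.5 over 15.5 to 23.5 CPM. The HFD values above all chow livers came from 3 libraries, HFD 2 with 91.5 CPM, HFD 1 with 57.2 CPM and HFD 8 with 30.2 CPM. The log2 change was 0.88 over all libraries (SE 0.281, adjusted p = 0.0301, edgeR's quasi-likelihood test) and 0.33 without HFD 1 and HFD 2 (adjusted p = 0.0429). It was 0.56 without HFD 2 alone, with an adjusted p of 0.0534, and 0.85 without chow 9, the library with the most rRNA, with an adjusted p of 0.0512. HFD 1 and HFD 2 are the libraries dominated by mitochondrial counts and with the lowest hepatocyte markers, and the part of either in the level of Ccng1 was not tested. With limma voom the log2 change of 0.40 was not called (adjusted p = 0.136).

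Mdm2, the ubiquitin ligase that degrades p53 and is itself induced by p53, lies on chromosome 10 at 117688875 to 117710758, minus strand (ENSMUSG00000020184). Its level was 8.08 CPM at the lowest, 14.1 CPM at the median and 35.5 CPM at the highest in HFD livers, and 8.16, 10.4 and 15.3 CPM in chow livers. The ranges overlapped over most of their width, 4 HFD libraries were above the highest chow library and 1 was below the lowest. The change of 0.59 on the log2 scale was close to the threshold (SE 0.200, adjusted p = 0.0422, edgeR's quasi-likelihood test), and the call held in 8 of the 20 fits that each left out 1 library. Those that ended it left out HFD 2, HFD 6, HFD 8, HFD 10, or any chow library other than chow 4 and chow 9, with adjusted p-values of 0.0507 to 0.0749. Leaving out HFD 6 gave the smallest log2 change, 0.38. Without HFD 1, HFD 2 and HFD 6 the change was 0.40 and passed the test (SE 0.114, adjusted p = 0.0107, edgeR's quasi-likelihood test).

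**Figure D1:**
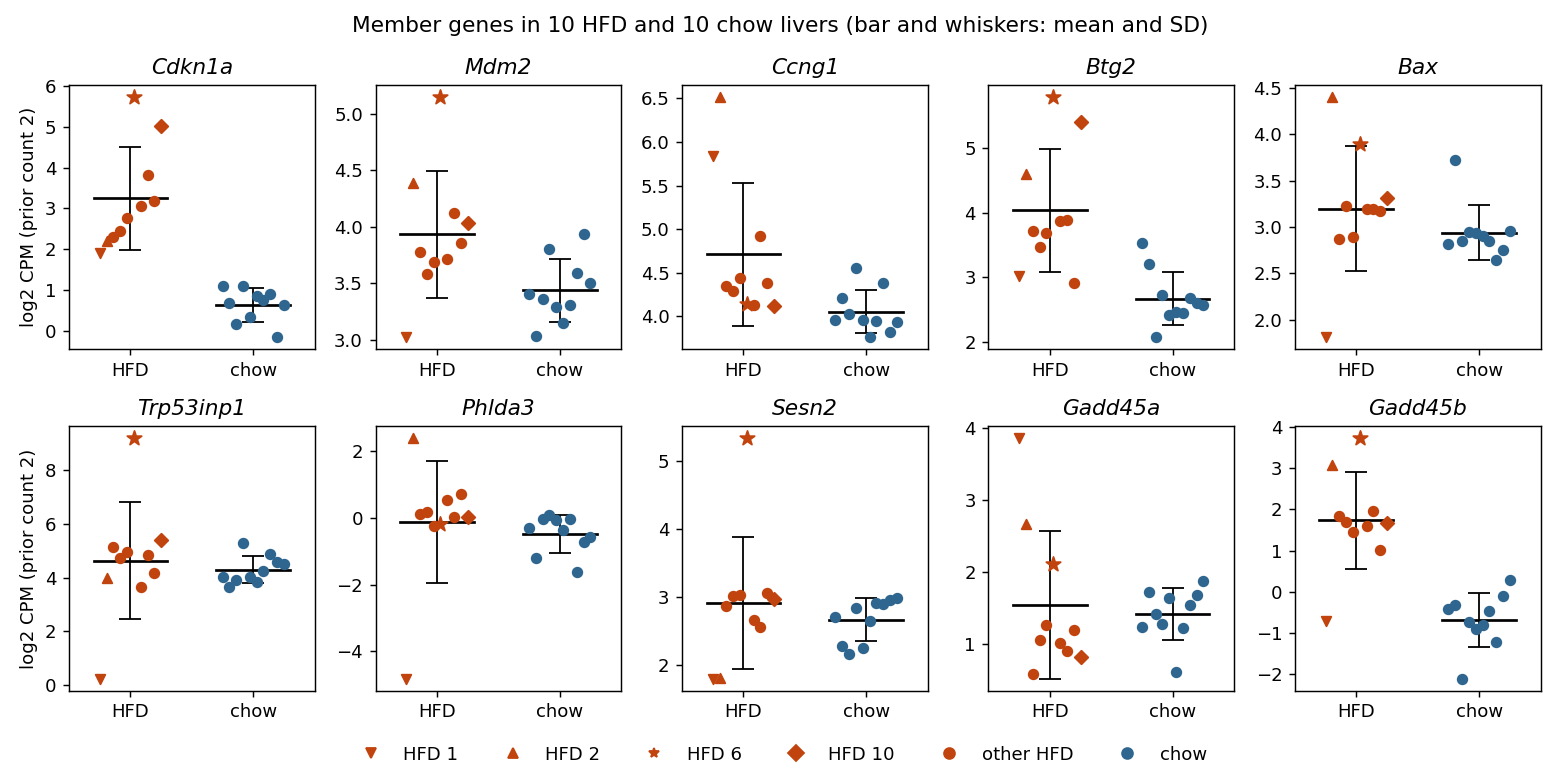
Log2 CPM (prior count 2, vertical axis) of each gene in 10 HFD livers, on the left of each panel, and 10 chow livers, on the right, with the mean as a bar and the SD as whiskers. Every HFD library lies above every chow library for Cdkn1a, 9 of 10 do for Gadd45b, and single libraries lie far from the rest of their diet in other panels: HFD 6 above it for Trp53inp1 and Sesn2, HFD 2 above it for Phlda3, HFD 1 above it for Gadd45a, and HFD 1 below it for Phlda3 (0 counts) and Trp53inp1 (4 counts).

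The 3 genes tied to cell death and survival signalling did not pass the test over all libraries. Bax, which opens pores in the mitochondrial outer membrane during apoptosis (ENSMUSG00000003873, chromosome 7 at 45461697 to 45466898, minus strand), had 3.46, 9.12 and 21.1 CPM as lowest, median and highest in HFD livers and 6.22, 7.33 and 13.2 CPM in chow livers. The log2 change was 0.37 (SE 0.220, adjusted p = 0.255, edgeR's quasi-likelihood test). On log2 FPKM with 1 and 0.1 added it was -0.0464 and -0.18, where the median of all genes was -0.14 and -0.39. Both ends of the HFD range came from HFD 1 and HFD 2, and the 7 HFD libraries other than HFD 1, HFD 2 and HFD 6 had 8.73 ± 0.991 CPM (SD). In that comparison the log2 change was 0.18 (adjusted p = 0.295).

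Trp53inp1 encodes a stress protein that promotes p53 activity and autophagy (ENSMUSG00000028211, chromosome 4 at 11156431 to 11174379, plus strand). HFD livers had 1.15 CPM at the lowest, 27.6 CPM at the median and 574.2 CPM at the highest, and chow livers had 12.6, 17.6 and 38.9 CPM. The highest value belonged to HFD 6, 20.8 times the mean of the 7 HFD libraries other than HFD 1, HFD 2 and HFD 6. The lowest belonged to HFD 1 and rests on 4 counts. The log2 change of 1.92 did not pass the test over all libraries (SE 0.704, adjusted p = 0.0587, edgeR's quasi-likelihood test). It was 2.23 without HFD 1 and HFD 2 (adjusted p = 0.0122). Leaving out HFD 6 alone reduced it to 0.18 (adjusted p = 0.734). Leaving out HFD 1, HFD 2, HFD 4, HFD 7 or HFD 9 singly brought it past the threshold, with adjusted p-values of 0.0230 to 0.0492.

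Phlda3, a p53 target that competes with Akt for membrane lipids (ENSMUSG00000041801, chromosome 1 at 135766119 to 135769136, plus strand), was the gene with the fewest counts, 718 over the HFD libraries and 386 over the chow libraries. HFD livers had 0, 1.03 and 5.24 CPM as lowest, median and highest, and chow livers 0.288, 0.764 and 1.03 CPM. The 0 is HFD 1, where the 3 counts that a count of 0 allows correspond to 0.866 CPM, and the 5.24 CPM is HFD 2. The log2 change was 0.89 (SE 0.386, adjusted p = 0.108, edgeR's quasi-likelihood test). Without HFD 1 and HFD 2 it was smaller but less spread, 0.63, and passed the test (SE 0.226, adjusted p = 0.0429).

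Sesn2 encodes sestrin 2, which restrains mTORC1 when leucine is low and is induced by p53 and by ATF4 (ENSMUSG00000028893, chromosome 4 at 132492032 to 132510501, minus strand). Its level was 3.46, 7.57 and 40.1 CPM as lowest, median and highest in HFD livers and 4.45, 6.80 and 7.88 CPM in chow livers. The medians were within 1.11 times of each other, and 40.1 CPM was again HFD 6. The log2 change was 0.64 over all libraries (SE 0.341, adjusted p = 0.197, edgeR's quasi-likelihood test) and 0.86 without HFD 1 and HFD 2 (adjusted p = 0.0491). In the fit that lacked HFD 6 it was 0.05 (adjusted p = 0.879). DESeq2, which replaces outlying counts, replaced those of HFD 6 for Sesn2 and Trp53inp1 and gave log2 changes of 0.12 and 0.21 (adjusted p = 0.595 and 0.681).

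The 2 GADD45 genes, whose small acidic proteins activate the p38 and JNK pathway and act in cell cycle checkpoints, gave separate patterns of values. Gadd45b (ENSMUSG00000015312, chromosome 10 at 80930073 to 80932204, plus strand) had 0.577, 3.17 and 13.2 CPM as lowest, median and highest in HFD livers, against 0.197, 0.626 and 1.19 CPM in chow livers. All HFD libraries but HFD 1, whose value rests on 2 counts, were above the highest chow library. The log2 change was 2.77 (SE 0.401, adjusted p = 3.07e-05, edgeR's quasi-likelihood test), and the gene passed the test in each of the 20 fits that left out 1 library. Without HFD 1, HFD 2 and HFD 6 the remaining HFD livers had 3.06 ± 0.601 CPM (SD, n = 7) and chow livers 0.643 ± 0.274 CPM (SD, n = 10), a log2 change of 2.27 (adjusted p = 3.70e-07, edgeR's quasi-likelihood test).

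Gadd45a (ENSMUSG00000036390, chromosome 6 at 67035096 to 67037457, minus strand) is the family member most often used as a p53 target. HFD livers had 1.47, 2.15 and 14.4 CPM as lowest, median and highest, and chow livers 1.49, 2.75 and 3.63 CPM. The median was lower in HFD than in chow, whereas the fitted log2 change was 0.38 in the other direction and was not called (SE 0.361, adjusted p = 0.489, edgeR's quasi-likelihood test). HFD 1 with 14.4 CPM and HFD 2 with 6.28 CPM set the mean: without both the log2 change was -0.24 (adjusted p = 0.376), and without HFD 6 as well it was -0.45 (SE 0.155, adjusted p = 0.0293). E230016M11Rik, which overlaps Gadd45a on the opposite strand, had 73 counts in HFD and 76 in chow, against 1432 and 1402 for Gadd45a, and strandedness is not given in the sources used here.

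**Figure D2:**
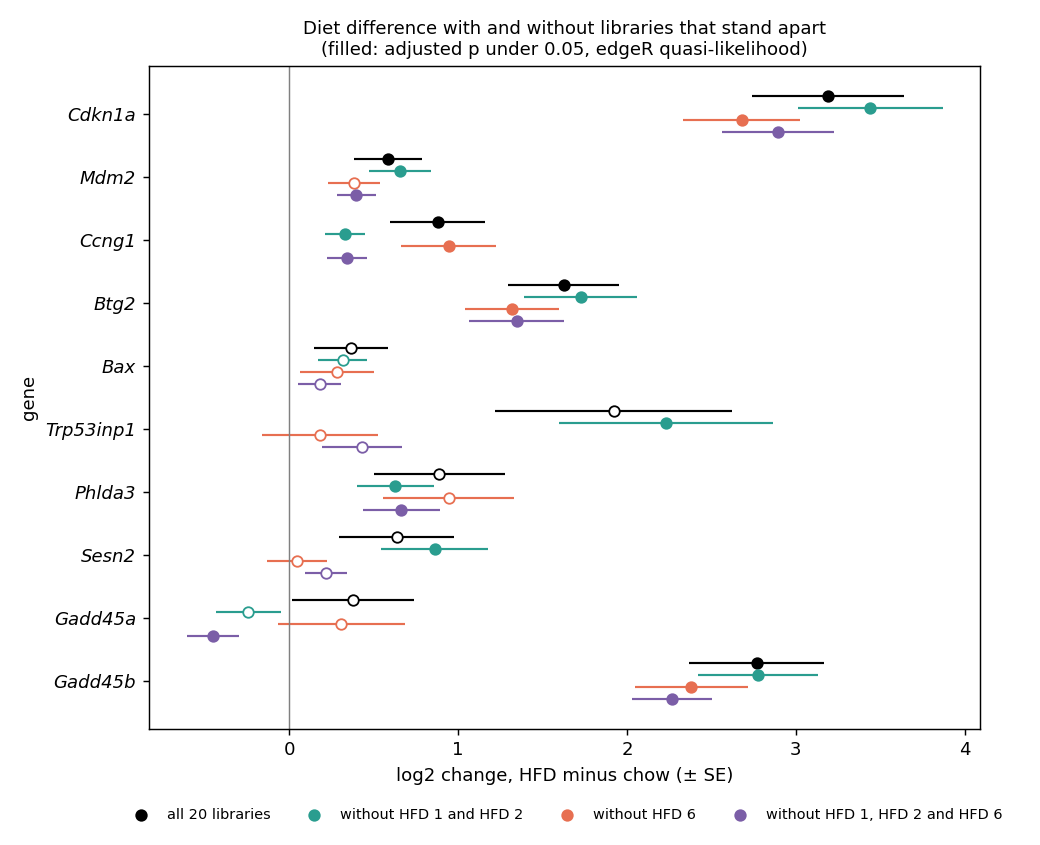
Fitted log2 change of each gene, HFD minus chow, with its SE (horizontal axis), over all 20 libraries and without HFD 1 and HFD 2, without HFD 6, or without all 3; filled points have an adjusted p under 0.05. Cdkn1a, Btg2 and Gadd45b stay to the right at every setting, between 1.32 for Btg2 and 3.44 for Cdkn1a, while Trp53inp1 lies at 0.18 without HFD 6, against 1.92 over all libraries, and Gadd45a at -0.45 without all 3 libraries, against 0.38.

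The number of genes that passed the test depended on these libraries. Without HFD 1 and HFD 2, 8 of the 10 genes were called higher, where 17.9% of all tested genes were called higher. Trp53inp1, Phlda3 and Sesn2 joined Cdkn1a, Btg2, Gadd45b, Mdm2 and Ccng1 there, which were also called over all 20 libraries. Without HFD 6, 4 genes were called higher (13.1% of all genes). Without all 3 libraries, 6 genes were called higher, Cdkn1a, Btg2, Gadd45b, Mdm2, Ccng1 and Phlda3, and 1 lower, Gadd45a, with 18.2% of all genes higher and 15% lower. With all 20 libraries, DESeq2 called 6 genes higher (17.6% of all genes), limma voom 4 (8.62%), and voom with quality weights 7 (17.9%) and 1 lower, Gadd45a (18.8%). Scaling by library totals alone left 3 genes called higher (3.49%), and log2 FPKM with 1 or 0.1 added left 2 (2.96% and 1.99%). Leaving out any single library gave 4 to 7 genes called higher, where 1624 to 2206 of all tested genes were called higher. Cdkn1a, Btg2 and Gadd45b were called in all 20 of those fits, Ccng1 in 18, Mdm2 in 8, Trp53inp1 in 5, Phlda3 in 1 and Bax, Sesn2 and Gadd45a in 0.

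The order of the levels can be set between genes only per length, here as the median CPM per kilobase of the gene length in the deposited FPKM table. In HFD livers the order was Ccng1 (5.87), Bax (5.79), Btg2 (5.06), Trp53inp1 (4.26), Mdm2 (2.77), Sesn2 (2.18), Cdkn1a (2.12), Gadd45b (2.00), Gadd45a (1.22) and Phlda3 (0.660). Chow livers put Bax first (4.65), then Ccng1 (4.41), Trp53inp1 (2.72), Btg2 (2.19), Mdm2 (2.05), Sesn2 (1.96), Gadd45a (1.56), Phlda3 (0.490), Cdkn1a (0.452) and Gadd45b (0.394). Cdkn1a and Gadd45b, the lowest of the 10 in chow, were thus at about the level of Sesn2 in HFD. Differences between neighbours in either order were not tested.

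HFD 6 was high for most of the genes, but the genes were not all high in the same livers. Summed over the 10 genes, the level was 88 to 809 CPM in HFD livers, with a median of 107 CPM, and 60.3 to 103.8 CPM in chow livers, with a median of 72.9 CPM. HFD 6 gave the highest sum, of which Trp53inp1 made up 574.2 CPM. Against the mean of the 7 HFD libraries other than HFD 1, HFD 2 and HFD 6, HFD 6 was 20.8 times higher for Trp53inp1, 5.42 times for Sesn2, 4.59 times for Cdkn1a, 4.32 times for Gadd45b and 3.32 times for Btg2. For Mdm2, Gadd45a and Bax, HFD 6 had 2.49, 2.19 and 1.70 times that mean. It was not high for Ccng1 (0.838 times) or Phlda3 (0.745 times). HFD 10 was second for Cdkn1a, Btg2 and Trp53inp1 but had 7.84 CPM of Sesn2 and 3.14 CPM of Gadd45b, within the range of the other HFD livers. HFD 2, in contrast, was highest for Ccng1, Bax and Phlda3. All 10 genes had a larger coefficient of variation in HFD (45.8% to 223%) than in chow (18.7% to 42.6%). This rested on HFD 1, HFD 2 and HFD 6: without them it was larger in HFD for 3 genes only, Cdkn1a (83.5% in HFD, 26.4% in chow), Btg2 (69.7% and 32.7%) and Ccng1 (20.7% and 18.7%), and smaller in HFD for the other 7, such as Bax (11.4% and 25.1%) and Gadd45b (19.7% and 42.6%).

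**Figure D3:**
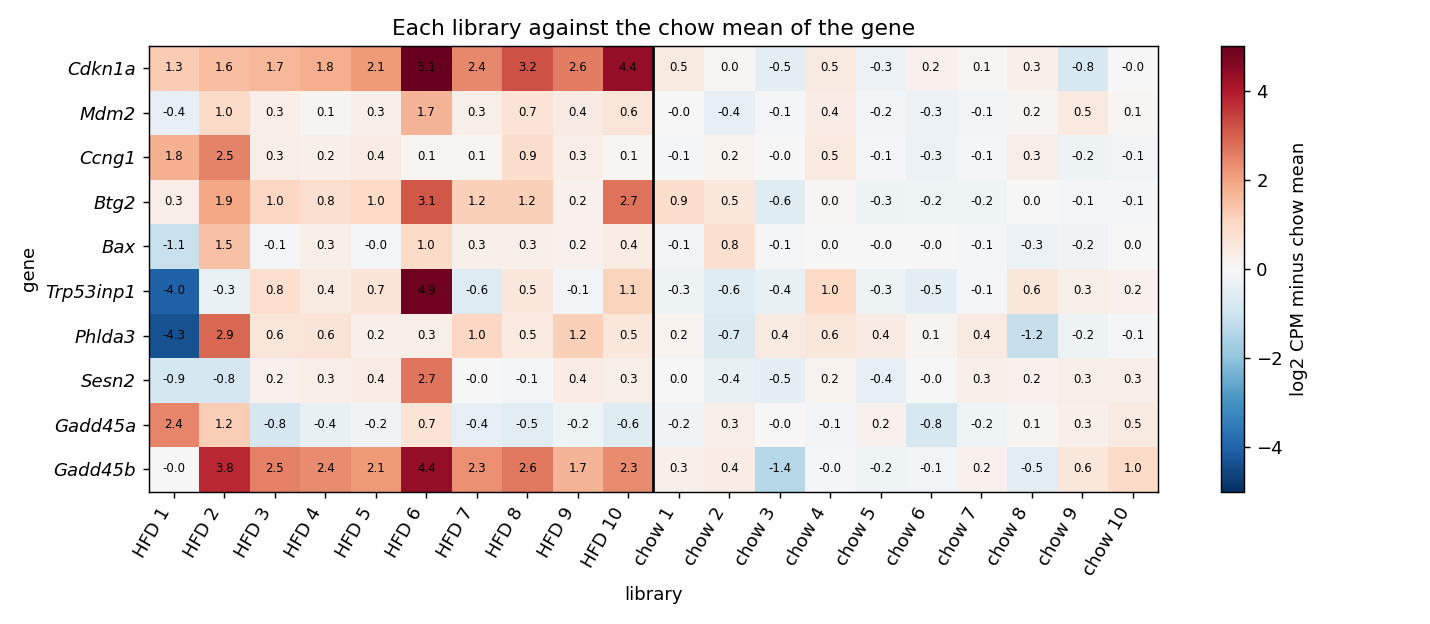
Log2 CPM of each gene in each library minus the gene's mean over the chow libraries (colour and number), with HFD 1 to HFD 10 left of the line and chow 1 to chow 10 right of it. Cdkn1a is above the chow mean in all 10 HFD livers, and HFD 6 is the highest column for 6 genes.

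Whether Cdkn1a varied together with the other genes was asked within each diet, over 18 relations on log2 CPM with two-sided permutation tests. None had an adjusted permutation p under 0.05. In HFD livers (n = 10) the closest were Btg2 (Pearson r 0.783, permutation p = 0.0110, adjusted 0.0663; Spearman rho 0.515, permutation p = 0.133), Sesn2 (r 0.771, permutation p = 0.00681, adjusted 0.0613; rho 0.612, permutation p = 0.0672) and Trp53inp1 (r 0.763, permutation p = 0.00370, adjusted 0.0613; rho 0.636, permutation p = 0.0545). Mdm2 followed with r 0.727 (permutation p = 0.0170, adjusted 0.0763; rho 0.576, permutation p = 0.0872). These values rested in part on HFD 6 and HFD 10, the livers farthest from the median of Cdkn1a: without them r was 0.00168 for Btg2, 0.464 for Sesn2, 0.476 for Trp53inp1 and 0.413 for Mdm2. HFD 1 and HFD 2 stayed in every r of HFD livers, and their part in it was not tested. HFD 1 was the lowest HFD library for Cdkn1a (13 counts), Sesn2 (12 counts) and Trp53inp1 (4 counts). In chow livers (n = 10) r lay between -0.427 for Gadd45a and 0.515 for Btg2, and every adjusted permutation p was 0.342 or higher for r and 0.314 or higher for rho.

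**Figure D4:**
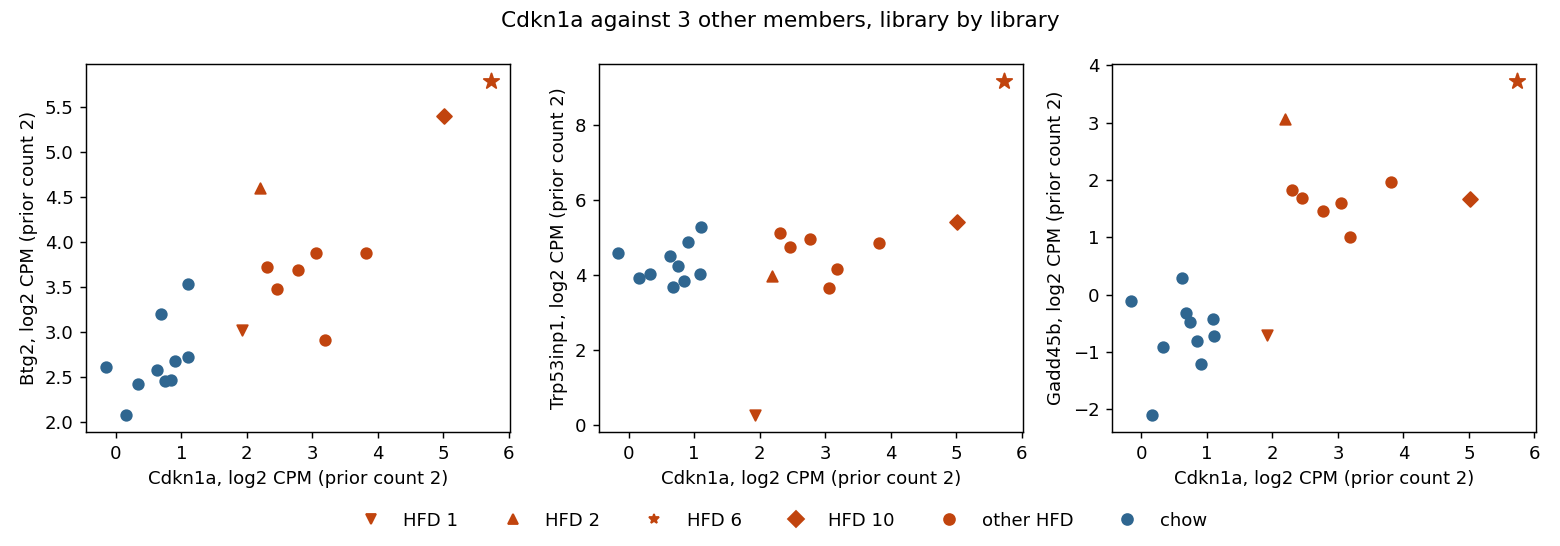
Log2 CPM (prior count 2) of Cdkn1a on the horizontal axis and of Btg2, Trp53inp1 or Gadd45b on the vertical axis, 1 point per library, HFD in red and chow in blue. The HFD points lie to the right of the chow points in each panel, and HFD 6 (star) and HFD 10 (diamond) lie at the right end, with Pearson r in HFD livers of 0.783 for Btg2 and 0.00168 without these 2 libraries.

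Over the 20 libraries, with log2 CPM centred within each diet, the genes whose pattern was most like that of Cdkn1a among 11237 protein-coding genes were Asap2 (r 0.902), Tmem268 (r 0.898), Mt1 (r 0.896), Tgm2 (r 0.891) and Nnmt (r 0.887). This likeness is a description with no test, and HFD 6 and HFD 10 are among the 20 points. Mt1, which encodes a metal-binding metallothionein, averaged 172.9 ± 311.6 CPM in HFD livers and 8.49 ± 3.24 CPM in chow livers (SD, n = 10 each), with 1002 CPM in HFD 10 and 381 CPM in HFD 6; its log2 change was 4.35, and 3.26 without HFD 10. Tgm2, tissue transglutaminase, averaged 137.5 ± 34.9 CPM in HFD livers and 73.0 ± 4.62 CPM in chow livers. Of the 10 genes the nearest to Cdkn1a was Btg2 at rank 158 (r 0.746), then Trp53inp1 at rank 227 and Sesn2 at rank 231, while Ccng1 had r -0.427.

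Other genes of the pathway were taken from lists. Of 32 further p53 target genes written as a list, 30 were tested, with a median log2 change of 0.08. In HFD 10 were called higher (13% of all tested genes) and 3 lower (7.05%), the latter near the share of all genes. Pmaip1, which encodes the pro-apoptotic protein Noxa, averaged 2.53 ± 1.76 CPM in HFD livers and 0.386 ± 0.154 CPM in chow livers (SD, n = 10 each; log2 change 2.64, SE 0.341, adjusted p = 7.33e-06, edgeR's quasi-likelihood test). Dram1, an autophagy gene, rose by 2.07, Ddit4, an mTORC1 inhibitor, by 1.65 and Apaf1, the scaffold of the apoptosome, by 1.34 on the log2 scale (adjusted p = 5.81e-06, 0.00282 and 0.000385). The 3 that fell were metabolic enzymes with high levels in liver: Dcxr, a carbonyl reductase, fell by 0.99, the epoxide hydrolase Ephx1 by 0.84 and the glutaminase Gls2 by 0.70 on the log2 scale (adjusted p = 0.000795, 0.0138 and 0.00394). Ephx1 and Gls2 were named because few genes fell, after their values were seen. The summed CPM of the list, to which Ephx1 and Gls2 contribute much, was lower in HFD livers (791 to 1050) than in chow livers (1122 to 1336).

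Among 15 tested genes for p53 and its regulators, 2 were called higher and none lower, with a median log2 change of 0.18. This share is close to that of all genes (13%), and the count was 1 in limma voom (8.62% of all genes) and 0 with library totals alone (3.49%). Chek1, a checkpoint kinase gene, averaged 0.723 ± 0.691 CPM in HFD livers and 0.224 ± 0.128 CPM in chow livers (log2 change 1.59, adjusted p = 0.0157), and Chek2, another, averaged 7.74 ± 12.4 CPM in HFD livers and 1.70 ± 0.420 CPM in chow livers (log2 change 2.06, adjusted p = 0.0195). Chek2 lost its call when HFD 1 was left out (1.25, adjusted p = 0.0611) and had a change of 0.38 without HFD 1 and HFD 2 (adjusted p = 0.238). Without HFD 1, HFD 2 and HFD 6 the change of Chek2 was 0.51 and was called (adjusted p = 0.0163, edgeR's quasi-likelihood test). Of 4 tested inhibitors of cyclin-dependent kinases other than Cdkn1a, none was called by edgeR's quasi-likelihood test and none had an unadjusted p under 0.05. DESeq2 called 1 higher (17.6% of all genes), voom 0 (8.62%), and 2 of 5 tested were called higher without HFD 1 and HFD 2 (17.9%).

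Of 16 tested paralogs of the 10 genes, 4 were called higher (13% of all genes) and none lower (7.05%), with a median log2 change of 0.15. Gadd45g, the third GADD45 gene, averaged 23.2 ± 33.9 CPM in HFD livers and 1.71 ± 1.08 CPM in chow livers (log2 change 3.74, SE 0.818, adjusted p = 0.00259, edgeR's quasi-likelihood test). HFD 6 held the most of it, and the change was 3.01 without HFD 6 and 1.34, no longer called, without HFD 1, HFD 2 and HFD 6 (adjusted p = 0.0533). The Btg2 relatives Btg3 and Btg1 changed by 3.87 and 1.11 on the log2 scale (adjusted p = 0.00225 and 0.0250), and HFD 6 held 70.8 CPM of Btg3 and 290.7 CPM of Btg1. Without HFD 6 the changes were 1.65 and 0.51. Bak1, the partner of Bax in pore formation, had a log2 change of 0.53 (adjusted p = 0.0324). Its call was lost without chow 1, chow 3, chow 5, chow 9 or chow 10 (adjusted p = 0.0503 to 0.0603), and the change was 0.29 without HFD 1, HFD 2 and HFD 6 (adjusted p = 0.0255). The list had 2 genes called higher in limma voom (8.62% of all genes) and 2 with library totals alone (3.49%).

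In the BCL2 family, whose members hold back or trigger the opening of mitochondria by Bax and Bak1, the median log2 change was 0.35. Here 7 of 16 tested genes were called higher (13% of all genes) and none lower (7.05%). They include the anti-apoptotic Bcl2, at 5.85 ± 9.81 CPM in HFD livers and 0.510 ± 0.257 CPM in chow livers (log2 change 3.35, adjusted p = 0.00181, and 1.60 without HFD 1 and HFD 2, adjusted p = 0.00228). Bcl2a1a, Bcl2a1b and Bcl2a1d, anti-apoptotic genes of leukocytes, changed by 3.88, 5.16 and 4.55, and by 3.35, 3.80 and 3.50 without HFD 1 and HFD 2. Leaving out HFD 2 alone gave 3.24 for Bcl2a1a and 3.81 for Bcl2a1d, and leaving out HFD 1 gave 4.54 for Bcl2a1b and 2.46 for Bcl2. The Bcl2a1 genes are near-identical copies whose reads may have been divided among them in counting, so their separate values are uncertain. The pro-apoptotic Pmaip1 and Bak1 were called higher as well.

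**Figure D5:**
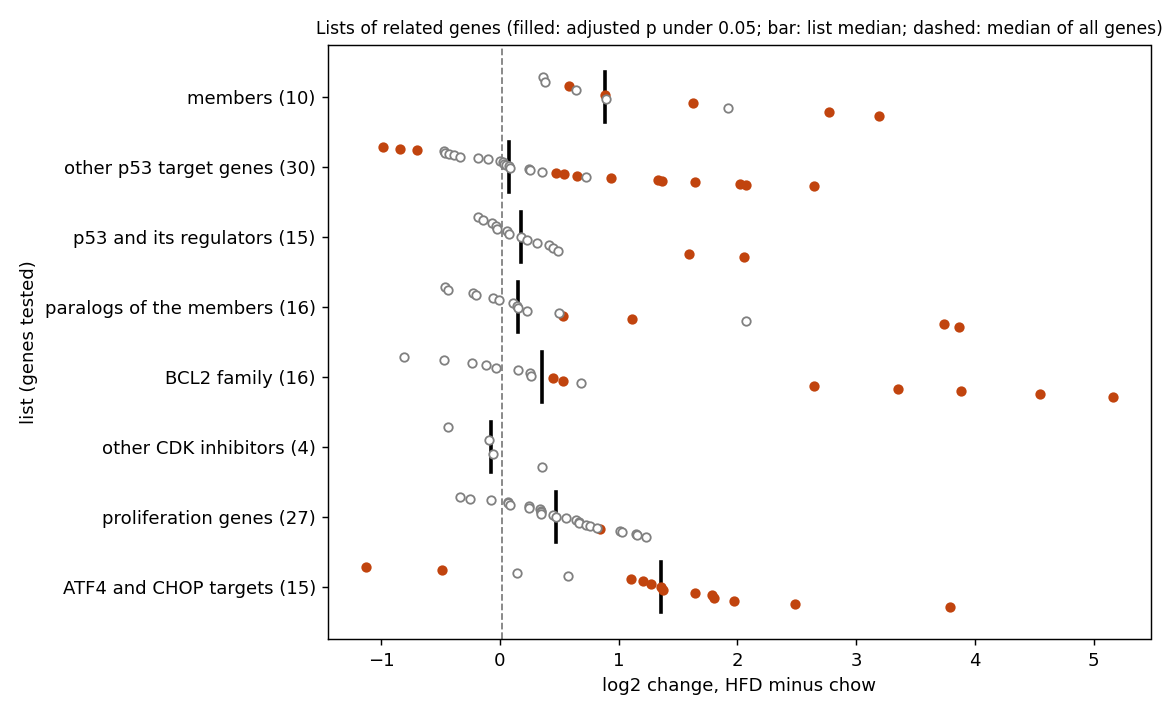
Log2 change of every tested gene, HFD minus chow, in the 10 genes (members) and in 7 related lists, with the list median as a bar and the median of all genes as a dashed line; filled points have an adjusted p under 0.05. Over all 20 libraries the medians are 0.89 for the 10 genes, 0.08 for other p53 targets and 1.35 for the targets of ATF4 and CHOP. Without HFD 1, HFD 2 and HFD 6 they are 0.42, 0.11 and 0.87.

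ATF4 and CHOP are transcription factors of the integrated stress response that also act on Sesn2, Cdkn1a and Gadd45 genes. Of 15 tested genes induced by them, 11 were called higher (13% of all genes) and 2 lower (7.05%), with a median log2 change of 1.35. Atf3 averaged 13.4 ± 11.3 CPM in HFD livers and 0.957 ± 0.247 CPM in chow livers (SD, n = 10 each; log2 change 3.79, SE 0.387, adjusted p = 4.35e-07, edgeR's quasi-likelihood test), and Nupr1 rose by 2.48 (adjusted p = 0.000429). The amino acid genes Psat1 and Chac1 changed by 1.97 and 1.79 (adjusted p = 0.0119 and 0.0438), and without HFD 6, which was the highest library for both, by 0.81 and 0.78 (adjusted p = 0.0441 and 0.229). The pseudokinase gene Trib3, a target of the same factors, and Shmt2 were lower in HFD. Leaving out any of HFD 10 and chow 3 to chow 10 also ended the call of Chac1 (adjusted p = 0.0647 to 0.0742). Without HFD 1, HFD 2 and HFD 6 the change of Atf3 was 3.00 and that of Nupr1 1.77, both called. The list had 7 genes called higher and 2 lower without HFD 6, where 1920 and 1208 of all 14618 tested genes were. It had 6 and 2 in limma voom (1253 and 1319 of 14542 genes), and 2 and 0 with library totals alone (507 and 93 of 14542). Without HFD 1 and HFD 2 it had 11 higher and 1 lower (2651 and 1539 of 14842 genes). Without HFD 6 as well it had 10 and 3 (2723 and 2241 of 14922).

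Genes of proliferating cells were set beside Cdkn1a and Btg2. Of 27 tested, only Ccnd1, which encodes cyclin D1, was called higher (13% of all genes) and none lower (7.05%), with a median log2 change of 0.47. Ccnd1 averaged 19.5 ± 10.4 CPM in HFD livers and 10.8 ± 2.07 CPM in chow livers (log2 change 0.85, adjusted p = 0.0473, edgeR's quasi-likelihood test), and this call was lost without HFD 3, HFD 4, HFD 5, HFD 7, HFD 8 or any chow library but chow 1 (adjusted p = 0.0612 to 0.0905). The count was 7 higher without HFD 1 and HFD 2 (17.9% of all genes) and 11 without HFD 6 as well (18.2%). It was 10 in DESeq2 (17.6%), against 1 in limma voom (8.62%), so it varied with the libraries and the tool.

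Markers of several other cell types differed between the diets in the same livers. Beside the counts that follow, 13% of all tested genes were called higher and 7.05% lower. Of the macrophage markers 10 of 12 were called higher, with summed levels of 1361 to 2724 CPM in HFD livers and 395 to 731 CPM in chow livers. Of the neutrophil markers all 5 tested of 6 were called higher, with sums of 20.6 to 330 CPM in HFD livers and 3.71 to 4.96 CPM in chow livers, and Ly6g had no count in chow. Stellate cell markers were called higher for 4 of 7, T and B cell markers for 2 of 7, cholangiocyte markers for 1 of 5 and endothelial markers for 0 of 5, while 1 of 7 hepatocyte markers, Ttr, was lower. These counts varied with the libraries and the tool. Without HFD 1, HFD 2 and HFD 6 (18.2% of all genes higher, 15% lower), 3 of 5 endothelial markers were higher and 2 of 7 hepatocyte markers lower. In limma voom (8.62% higher, 1319 of 14542 genes lower), 3 of 7 hepatocyte markers were lower and 0 of 7 T and B cell markers higher. With library totals alone (3.49% higher), 8 of 12 macrophage and 0 of 7 stellate markers were higher. HFD 6, the highest library for Cdkn1a and Gadd45b, had the lowest macrophage sum of the HFD livers (1361 CPM) and the lowest sum of T and B cell markers of all libraries (0.356 CPM), and its hepatocyte markers summed to 43329 CPM. The part of cell composition in the levels of the 10 genes was not tested. In whole liver, more or fewer cells of a type and more or less RNA per cell cannot be told apart.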

How the data were processed

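Total RNA of 20 liver samples was sequenced, 10 per diet, and groups and replicate numbers come from the sample labels. Per the submitters' processing notes, fastp was used on the reads and mm10 was the genome build; which aligner, counter and annotation were used, and whether strand was kept, is not given in the sources used here. The authors deposited whole-number counts per gene and library, and an FPKM table in which all 27216 genes with counts equal the count scaled by the library total and 1 length per gene. Of 55401 IDs, 55141 matched GENCODE M21 (GRCm38, the assembly of mm10), and the 260 others held at most 0.00852% of a library. Genes overlapping the 10 genes, other than E230016M11Rik, had at most 5 counts in all HFD or all chow libraries.

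Genes kept by filterByExpr at a minimum count of 10 and a minimum total of 15 were tested with edgeR 4.0.16 (R 4.3.3), using TMM scaling and a robust quasi-likelihood F test on diet alone, two-sided, with Benjamini-Hochberg adjustment over 14542 genes. An SE is the log2 change divided by the root of F. Alternatives used DESeq2 1.42.0, limma 3.58.1 (voom, and log2 FPKM with 1 or 0.1 added), other scalings and filters, the replicate number as a block, and fits without libraries. The fits were tested on simulated data. Promoters come from RefSeq. Tables and figures used Python 3.11.15, pandas 2.3.3, scipy 1.17.1 and matplotlib 3.10.9. Identical libraries would differ by a chi-square near 1 per gene, and the nearest pairs within a diet reached 14.1 (HFD 4 with HFD 5) and 10.6 (chow 3 with chow 5), so none was taken as a duplicate.

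The 10 genes, the lists and the tests were chosen with earlier results of these data known. Named beyond the 10 genes are Trp53, every called gene of a list with 5 or fewer, otherwise its 5 called genes with the largest log2 change and a mean of at least 1 CPM, and the 5 genes most like Cdkn1a. Trib3, Shmt2, Ephx1 and Gls2 were named after their values were seen.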

Additional observations from a re-analysis of the deposited data

Results flagged for a closer look

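In 6 of 20 groups (10 genes in 2 diets of 10 livers each), 1 library stood apart from its diet by the gap to its nearest neighbour as a share of the range. The cut-off flags about 1 in 20 groups of independent, normally distributed values. CPM values need not be normal and the groups share the same libraries, so the count of 6 cannot be compared with that rate. HFD 6 did so for 3 genes: Mdm2 with 35.5 CPM (next highest HFD 2, 20.9 CPM), Trp53inp1 with 574.2 CPM (next HFD 10, 42.3 CPM) and Sesn2 with 40.1 CPM (next HFD 9, 8.27 CPM). Phlda3 had 5.24 CPM in HFD 2 (next HFD 9, 1.60 CPM) and Gadd45a 14.4 CPM in HFD 1 (next HFD 2, 6.28 CPM). The only chow library was chow 2, with 13.2 CPM of Bax (next chow 10, 7.74 CPM). Cdkn1a, Btg2, Ccng1 and Gadd45b had no such library in either diet. The gap to the nearest neighbour can miss a library when another extreme one lies beside it. In HFD livers Ccng1 had 91.5 CPM in HFD 2 and 57.2 CPM in HFD 1, then 30.2 CPM in HFD 8. Gadd45b had 13.2 CPM in HFD 6 and 8.38 CPM in HFD 2, then 3.85 CPM in HFD 8.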

How the results depend on the processing

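Cdkn1a kept its call under every alternative run, and Gadd45b under every one that tested it: the filter of 1 CPM in 10 libraries removed it. The 5 genes called higher became 3 with library totals alone, 2 on log2 FPKM with 1 or with 0.1 added, 3 with the replicate block (6.28% of all genes) and 8 without HFD 1 and HFD 2, and ranged from 4 to 7 when 1 library was left out (0 to 0 lower). The count of lower genes, 0, became 1 with voom quality weights and 1 without HFD 1, HFD 2 and HFD 6. The gene whose diets did not overlap, 1, became 2 without HFD 1 and HFD 2 and 0 with library totals alone. Other p53 targets called higher, 10, became 2 with library totals, 2 on either FPKM scale and 5 with the block, and ranged from 8 to 10 without 1 library; those lower, 3, became 6 with voom quality weights, 0 with library totals and 0 on either FPKM scale, and ranged from 3 to 4. All genes called higher, 1886, became 1253 with voom, 507 with library totals, 430 and 290 on FPKM with 1 and 0.1 added and 913 with the block (1624 to 2206 without 1 library). All genes called lower, 1025, became 2728 with voom quality weights, 93 with library totals, 287 and 208 on FPKM, 661 with the block, 1539 without HFD 1 and HFD 2 and 2241 without HFD 1, HFD 2 and HFD 6 (706 to 1208 without 1 library). Targets of ATF4 and CHOP called higher and lower, 11 and 2, became 6 and 0 with the block, 6 and 2 with voom and 2 and 0 with library totals; p53 and its regulators, 2 higher, became 0, 1 and 0, and paralogs, 4 higher, 1, 2 and 2. The cause of these shifts was not tested. Signs turned for Bax on FPKM (-0.0464 and -0.18), Sesn2 on FPKM with 0.1 added (-0.0935), Trp53 on FPKM (-0.18 and -0.38), Nnmt with voom quality weights (-0.0634) and on FPKM (-0.15 and -0.18), and Gadd45a with voom (-0.10), voom quality weights (-0.38), library totals (-0.21), FPKM (-0.17 and -0.31), without HFD 1 (-0.0504, the lowest of -0.0504 to 0.48 without 1 library), without HFD 1 and HFD 2 (-0.24) and without HFD 1, HFD 2 and HFD 6 (-0.45). The median of all genes was 0.02, but 0.13 with no filter and -0.14 and -0.39 on FPKM with 1 and 0.1 added, so changes on those scales are relative to it. Of 1253 values of 36 named genes under alternatives, 1101 kept direction and side of the threshold, 119 lost the call, 17 gained it and 16 turned sign. The replicate numbers share only a number: the deviations of same-numbered libraries correlated at -0.111 to 0.126, 2 of 10 pairs over 0.1, and 1 of 10 HFD libraries correlated best with its own number. With the block Mdm2 (adjusted p = 0.166) and Ccng1 (adjusted p = 0.0985) lost their call in edgeR's quasi-likelihood test. HFD 1 and HFD 2 limit depth, with 2237670 and 2860976 nuclear counts.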
